A study of Homo sapiens with 8 samples.

Results

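The response of HCT116 cells that lack HIF1A to acute hypoxia was followed by PRO-seq, which sequences the RNA extended by engaged polymerases during a short run-on in nuclei and so counts active polymerases rather than stored mRNA. The comparison comprised 4 of the 8 libraries of the experiment, namely HIF1A-/- cells in hypoxia (replicates 1 and 2) and HIF1A-/- cells in normoxia (replicates 1 and 2), and hypoxia libraries were paired with normoxia libraries of the same number. Genes were kept where more than 0.5 reads per 1000000 of the library total (CPM) were counted in at least 2 of the 8 libraries, which left 16686 gene bodies, 15212 TSS regions and 14494 genes with both, of 23193 genes in each table. HCT116 is an established colorectal carcinoma line, and hypoxia was 1% O2 for 90 min. All cultures received DMSO as vehicle, normoxic controls included. The HIF1A-/- line was derived from HCT116 by viral homologous recombination into exons 3 and 4 of the gene, so differences between HIF1A-/- and wild-type (WT) cells cannot be told apart from differences between 2 separately grown lines. The 4 WT libraries, from normoxia and hypoxia with the same vehicle, entered the same statistical fit and served to test where the genotypes differ.

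HIF1A is the oxygen-labile subunit of the hypoxia-inducible transcription factor. In normal oxygen the prolyl hydroxylases EGLN1, EGLN2 and EGLN3 mark it for VHL-dependent destruction, and in hypoxia it joins ARNT and binds short ACGTG-containing elements at glycolytic, angiogenic and other target genes. A second subunit, HIF2A (gene *EPAS1*), uses the same partner and the same core element, and many other oxygen-, heat- and ER-stress-responsive factors do not need HIF1A. The comparison asks which early changes at 1% O2 occur in cells without HIF1A.

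Library totals in HIF1A-/- cells lay between 20272336 and 21999565 reads in gene bodies and between 2783581 and 4288308 reads in TSS regions. Both replicate 1 libraries of HIF1A-/- cells had a smaller TSS share of all counted reads (11.2% and 12.9%) than both replicate 2 libraries (16.9% and 17.4%) and than the 4 WT libraries (17.4 to 20.2%). *HIF1A* itself was transcribed in the knockout, at 157 and 141 CPM in normoxia and 172 and 166 CPM in hypoxia, beside 129 to 164 CPM in the 4 WT libraries. A gene body count reaches far beyond the disrupted exons, so it does not check the label; the responses of HIF targets given next bear on it. Of 14 colon epithelium markers 11 passed the filter, and *CDX1*, *CEACAM5* and *CEACAM6* did not. One of the 11, *ELF3*, was called higher, as given later. Of 16 markers of other cell types 6 passed, at a median of 5.79 CPM, and their summed level was 37.6 and 65.1 CPM in normoxia and 48.7 and 75.4 CPM in hypoxia. All 6 had log2 fold changes above 0, with a median of 0.30, and none had groups that did not overlap. None was called by edgeR or by DESeq2 with the block and none had an unadjusted p under 0.05, while 2 were called higher in a fit of the 4 HIF1A-/- libraries alone, which called 11.2% of all gene bodies higher and 11.5% lower. Their part in other values was not tested.

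Very few genes passed the main test. In HIF1A-/- hypoxia 5 gene bodies rose (0.0300% of those tested) and 1 fell (0.00599%) in the quasi-likelihood test of edgeR (Benjamini-Hochberg FDR of 10%) with the replicate number as a block. Values are shares of a bulk library, so a response in fewer cells and a smaller response per cell cannot be told apart. At an unadjusted p under 0.05 there were 920 higher (5.51%) and 685 lower (4.11%). The count depended on how replicates were modelled. Without the block edgeR called no gene body in either direction, with 175 higher and 172 lower at an unadjusted p under 0.05 (1.05% and 1.03%), and DESeq2 called 2 higher and 6 lower (0.0120% and 0.0360%). With the block DESeq2 called 64 higher and 98 lower (0.384% and 0.587%). A fit with a separate replicate block in each genotype, chosen after the data were seen and resting on 2 residual degrees of freedom, called 585 higher and 571 lower (3.51% and 3.42%), here termed the within-genotype fit. All 6 genes of the main test were also called in the DESeq2 fit with the block and in the within-genotype fit. Leaving out 1 library at a time gave 0 to 5 genes higher and 0 to 5 lower, and none higher or lower was called without the second HIF1A-/- normoxia library.

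Of the 6 genes, *BHLHE40* is the only member of the HIF target list. It encodes a basic helix-loop-helix repressor that acts in the circadian clock and in differentiation. Its gene body (chromosome 3, 5022097 to 5026866, plus strand, GRCh37) had 17.3 and 35.6 CPM in normoxia and 40.8 and 83.1 CPM in hypoxia. Both hypoxic libraries were above both normoxic ones, and replicate 2 was higher than replicate 1 at each oxygen level. The log2 fold change was 1.19 ± 0.109 (SE, n = 2 per group; edgeR adjusted p = 0.0257). In WT cells the same gene body went from 16.9 and 27.4 CPM to 130 and 271 CPM, a log2 fold change of 3.10. The WT rise was larger by 1.91 on the log2 scale, and this difference passed the interaction test (adjusted p = 0.00287). *BHLHE40* was also the one TSS region called, as given with the TSS results.

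The promoter of *BHLHE40* is printed because it holds the HIF core letters and the gene still rose without HIF1A. The sequence is that of GRCh37 (chr3:5020846-5021145, plus strand), from 250 bases before the start in the deposited tables to 50 bases from it, and capitals mark ACGTG or its reverse complement CACGT.
BHLHE40 promoter: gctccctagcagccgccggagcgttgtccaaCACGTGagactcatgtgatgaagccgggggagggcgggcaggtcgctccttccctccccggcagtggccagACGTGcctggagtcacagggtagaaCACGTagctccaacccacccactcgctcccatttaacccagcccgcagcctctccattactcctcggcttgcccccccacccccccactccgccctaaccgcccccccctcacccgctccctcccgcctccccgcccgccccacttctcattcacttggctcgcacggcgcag
The 4 matches began 219, 218, 148 and 123 bases before the start, and the first and second overlap as the palindrome CACGTG, an E-box. ACGTG on either strand was found in 4053 (24.3%) of the 16686 promoters of genes tested and in 23 of 38 promoters of HIF targets (60.5%). CACGTG was found in 8.80% of all promoters and in 5 of 18 promoters of clock genes. A match is a description of letters and not a binding site. *BHLHE40-AS1*, whose start lies 550 bp away on the opposite strand, had 26.5 and 37.7 CPM in normoxia and 41.7 and 58.4 CPM in hypoxia (log2 fold change 0.60, adjusted p = 0.123).

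*LINCR-0002*, a long non-coding RNA gene (chromosome 3, 191144313 to 191308145, plus strand), had the smallest p. It had 1.73 and 7.52 CPM in normoxia and 8.61 and 33.1 CPM in hypoxia, a log2 fold change of 2.16 ± 0.154 (adjusted p = 0.00714). The hypoxic libraries lay above both normoxic ones, although normoxic replicate 2 came close to hypoxic replicate 1, and each pair moved by a similar factor. *ELF3*, an epithelial ETS factor (chromosome 1, 201980690 to 201986316, plus strand), had 6.95 and 14.1 CPM in normoxia and 14.3 and 29.4 CPM in hypoxia (log2 fold change 1.01 ± 0.106, adjusted p = 0.0424). Normoxic replicate 2 lay just under hypoxic replicate 1, and WT cells had 35.6 and 61.1 CPM already in normoxia.

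*PHEX*, a membrane endopeptidase known for its part in phosphate balance (chromosome X, 22051562 to 22269427, plus strand), had 18.9 and 30.03 CPM in normoxia and 50.6 and 59.7 CPM in hypoxia. All hypoxic values exceeded the normoxic ones, with a log2 fold change of 1.17 ± 0.124 (adjusted p = 0.0424). *LINC01619* (chromosome 12, 92378751 to 92535606, minus strand) had 18.3 and 28.6 CPM in normoxia and 37.7 and 57.4 CPM in hypoxia (log2 fold change 0.98 ± 0.108, adjusted p = 0.0426), again without overlap. Its gene body shares 1554 bp with *BTG1* on the same strand, whose own log2 fold change was 0.43 (adjusted p = 0.498). *PHEX* overlaps *PTCHD1-AS* on the opposite strand by 58307 bp. The libraries are labelled strand-specific, and the authors tabulated sense and antisense reads when they chose each TSS, but the strand setting of the deposited counts is not given in the sources used here.

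*BANP*, a nuclear matrix-associated DNA-binding protein (chromosome 16, 88004624 to 88110924, plus strand), was the one gene body that fell. It had 190 and 133 CPM in normoxia and 62.5 and 53.1 CPM in hypoxia. Both hypoxic libraries were under both normoxic ones, with a log2 fold change of -1.49 ± 0.17 (adjusted p = 0.0470). All 6 genes were also called in WT hypoxia in the same direction, where 3.73% of all gene bodies were called higher and 1.77% lower. WT log2 fold changes were 2.37 for *LINCR-0002*, 1.48 for *ELF3*, 1.16 for *PHEX*, 1.56 for *LINC01619* and -1.12 for *BANP*. Of the 6, only *BHLHE40* passed the test of a difference between genotypes. For *PHEX* the WT minus HIF1A-/- difference was -0.01, with a 95% interval of -0.40 to 0.39, and for *BANP* it was 0.37, with an interval of -0.17 to 0.91. For *ELF3* and *LINC01619* the intervals lay above 0 (0.15 to 0.80 and 0.24 to 0.92), with adjusted p-values of 0.649 and 0.446.

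**Figure D1:**
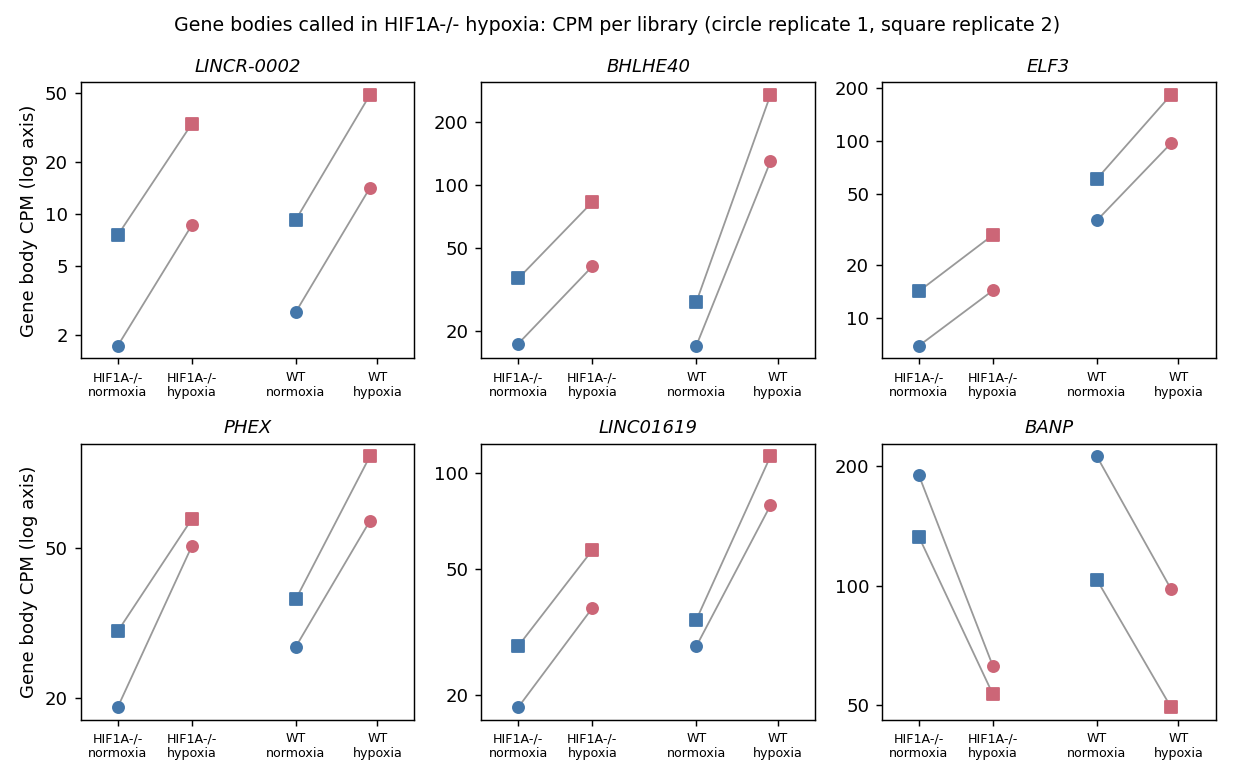
Gene body CPM (log axis) of the 6 genes called in HIF1A-/- hypoxia, for each of the 8 libraries; circles are replicate 1, squares replicate 2, blue normoxia, red hypoxia, and lines join libraries of the same number. Each HIF1A-/- pair moves in the same direction, and BHLHE40 moves further in WT cells, from 16.9 and 27.4 to 130 and 271 CPM.

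Below the threshold, the gene bodies next in order of p with non-overlapping groups had adjusted p-values from 0.114 to 0.136. On the higher side these were *LOC283140*, *TFDP2*, *IPCEF1*, *BHLHE40-AS1* and *LINC01119*. *TFDP2*, a dimerization partner of E2F factors, had 63.0 and 96.9 CPM in normoxia and 104 and 144 CPM in hypoxia, a log2 fold change of 0.61. On the lower side were *CACYBP*, *MYCBP2*, *CHORDC1*, *HSP90B1*, *CPNE8*, *MORC4*, *SRGAP2*, *TCP1* and *DAAM1*. *CHORDC1* is an HSP90 co-chaperone, *HSP90B1* is the HSP90 of the ER, *TCP1* is a subunit of the cytosolic chaperonin and *CACYBP* binds the ubiquitin ligase SIAH1. *CACYBP* had 82.4 and 63.1 CPM in normoxia and 47.3 and 38.4 CPM in hypoxia (log2 fold change -0.80). *MYCBP2*, a large ubiquitin ligase, had 269 and 261 CPM in normoxia and 174 and 187 CPM in hypoxia (-0.60), and *MYCBP2*, *MORC4* and *SRGAP2* were among the 6 gene bodies that DESeq2 called lower without the block.

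HIF targets as a list had a median near that of all genes in HIF1A-/- cells, with more members on the higher side. Of 41 genes listed 38 were measured, and their median log2 fold change in HIF1A-/- cells was 0.07, beside 0.00 over all genes and 1.91 for the same list in WT cells. Of the 38, 28 lay above 0 (73.7%, beside 50.7% of all gene bodies). One passed the main test in HIF1A-/- cells (*BHLHE40*), 7 were higher (18.4%, beside 5.51% of all) and 2 lower at an unadjusted p under 0.05, and the within-genotype fit called 5 higher and 2 lower, where it called 3.51% and 3.42% of all. The median was 0.18 without the second HIF1A-/- hypoxia library and 0.15 without the first HIF1A-/- normoxia library. In WT cells 33 of the 38 passed the test (background 3.73% of all gene bodies called higher), and for 27 the WT change exceeded that of HIF1A-/- cells in the interaction test (background 0.384%).

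*ANKRD37*, an ankyrin repeat gene, gave the widest gap. It had 1.45 and 1.56 CPM in HIF1A-/- normoxia and 1.08 and 1.63 CPM in HIF1A-/- hypoxia, against 1.88 and 2.04 CPM and then 26.5 and 87.6 CPM in WT cells. The HIF1A-/- libraries overlapped and the WT libraries did not, and the difference of 4.89 on the log2 scale passed the interaction test (adjusted p = 0.0267). *VEGFA*, the main angiogenic ligand, had 34.9 and 38.6 CPM in HIF1A-/- normoxia and 37.0 and 40.4 CPM in hypoxia, where it reached 112 and 125 CPM in WT cells. *PDK1*, the kinase that holds pyruvate back from mitochondria, had 19.3 and 26.2 CPM and then 26.9 and 30.5 CPM, which did not overlap, with a log2 fold change of 0.31 (adjusted p = 0.398) against 2.70 in WT cells. *SLC2A1*, the basal glucose transporter, stood at 450 and 381 CPM in HIF1A-/- normoxia, above the 95.9 and 137 CPM of WT normoxia, and had 474 and 346 CPM in HIF1A-/- hypoxia.

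Some members of the list had point estimates away from 0 without passing the test. *P4HA2*, a collagen prolyl hydroxylase, had 61.2 and 66.5 CPM in normoxia and 26.0 and 36.7 CPM in hypoxia, so the groups did not overlap and hypoxia was the lower one. Its log2 fold change was -1.06 (adjusted p = 0.292), beside 0.66 in WT cells, and the difference of 1.72 had an adjusted p of 0.318. *MIR210HG*, the host gene of a hypoxia-induced microRNA, had 5.32 and 7.99 CPM in normoxia and 8.07 and 13.2 CPM in hypoxia (0.63, adjusted p = 0.292), against 4.01 in WT cells. *ANGPTL4*, an inhibitor of lipoprotein lipase, had 20.2 and 27.2 CPM and then 32.1 and 44.1 CPM (0.64, adjusted p = 0.497). *CA9* was at or under 0.0984 CPM in all 4 HIF1A-/- libraries, too few reads for a change to be measured.

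The 20 glycolysis genes measured had a median of -0.05 in HIF1A-/- cells and 1.15 in WT cells. The HIF1A-/- median ran from -0.10 to 0.05 when 1 library was left out, above 0 without hypoxia replicate 2 or normoxia replicate 1. In HIF1A-/- cells edgeR called none, none was below an unadjusted p of 0.05, and neither DESeq2 with the block nor the within-genotype fit called any. In WT cells 18 were called higher, beside 3.73% of all gene bodies. For 9 of the 20 the WT change exceeded that of HIF1A-/- cells in the interaction test, beside 0.384% of all. *PGK1*, phosphoglycerate kinase, had 83.9 and 70.7 CPM in normoxia and 63.6 and 54.1 CPM in hypoxia (-0.43, adjusted p = 0.554). Of the sensing machinery, *EPAS1* had 25 and 47.9 CPM in normoxia and 26.3 and 43.3 CPM in hypoxia, and *ARNT* 52.9 and 74.9 CPM and then 54.0 and 75.1 CPM. Both overlapped between groups. The list of HIF2A-preferred targets, 20 of 22 measured, had a median of 0.20 in HIF1A-/- cells and 0.19 in WT cells. In HIF1A-/- cells none was called in edgeR. *MMP14* and *IRS2* were higher at an unadjusted p under 0.05 (10%, beside 5.51% of all gene bodies). The same 2 genes reached the threshold in the within-genotype fit and 1 with DESeq2 and the block, where 3.51% and 0.384% of all did. Of the 20, 18 lay above 0 (90.0%, beside 50.7% of all) and 8 had both hypoxic libraries above both normoxic ones, which held for 14.4% of all gene bodies. The HIF1A-/- median was 0.36 without hypoxia replicate 2 and 0.13 without normoxia replicate 2. *MMP14*, a membrane-bound matrix metalloproteinase, had 14.4 and 11.7 CPM in normoxia and 19.1 and 22.6 CPM in hypoxia.

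**Figure D2:**
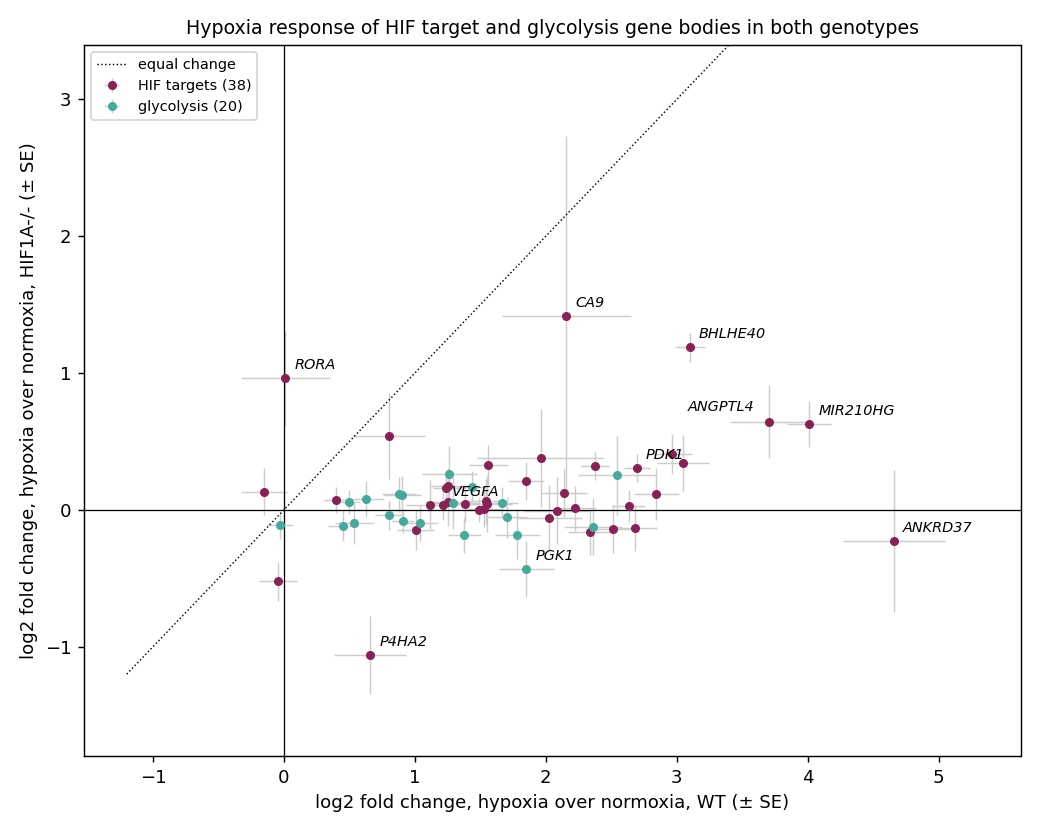
Log2 fold change of gene body reads, hypoxia over normoxia, in WT cells (x axis) and in HIF1A-/- cells (y axis) for 38 HIF targets and 20 glycolysis genes, with bars of 1 SE and a dotted line of equal change. Most points lie far right and near 0 on the y axis, with list medians of 1.91 and 1.15 in WT cells and 0.07 and -0.05 in HIF1A-/- cells. BHLHE40 (1.19) is the one point called in HIF1A-/- cells, while CA9 lies higher (1.42) with a wide bar and P4HA2 lowest (-1.06).

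Genes called in the WT contrast, hypoxia against normoxia in WT libraries, were then read in the HIF1A-/- contrast. The 623 genes that rose in WT hypoxia had a median log2 fold change of 0.21 in HIF1A-/- cells, and 503 of them (80.7%) lay above 0, beside 50.7% of all gene bodies. Of the 623, 220 were higher at an unadjusted p under 0.05 (35.3%, beside 5.51% of all gene bodies) and 3 lower. The 296 genes that fell in WT hypoxia (1.77% of those tested) had a median of -0.19, and 92.9% lay below 0 beside 49.3% of all. At an unadjusted p under 0.05, 120 were lower (40.5%, beside 4.11% of all) and none higher. Of the 162 gene bodies called in HIF1A-/- cells by DESeq2 with the block, 161 had a WT log2 fold change of the same sign. The share of all gene bodies with the same sign in both genotypes was not counted. In WT cells edgeR also called 95 of the 162 in the same direction, beside 3.73% of all gene bodies called higher and 1.77% lower. The 2 contrasts share no library, but one fit of all 8 libraries gave both their replicate block, normalization and estimate of spread.

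Of the lists examined, cytosolic heat shock proteins had the lowest median in HIF1A-/- cells. Cytosolic heat shock proteins are induced by HSF1 when proteins unfold, and hold or refold client proteins. Of 22 listed genes 21 were measured, 20 had a log2 fold change below 0, and the median was -0.60. It was -0.39 without HIF1A-/- normoxia replicate 2 and -0.38 without hypoxia replicate 1. None passed edgeR's main test. At an unadjusted p under 0.05, 15 were lower (71.4%, beside 4.11% of all gene bodies) and none higher. DESeq2 with the block called 10 lower and the within-genotype fit 16, where they called 0.587% and 3.42% of all. In 14 of the 21 both hypoxic libraries were below both normoxic libraries, which held for 9.15% of all gene bodies.

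*HSPH1*, a large HSP70-related exchange factor, had 318 and 222 CPM in normoxia and 120 and 87.6 CPM in hypoxia. The groups were far apart, with a log2 fold change of -1.41 ± 0.219 (adjusted p = 0.123). *CHORDC1* had 137 and 101 CPM in normoxia and 68.2 and 54.1 CPM in hypoxia (-0.99, adjusted p = 0.114). *AHSA1*, which stimulates the ATPase of HSP90, had 87.4 and 65.6 CPM and then 52.6 and 33.6 CPM (-0.90, adjusted p = 0.123). *BAG3*, a co-chaperone of HSP70 in selective autophagy, had 174 and 141 CPM and then 82.2 and 91.5 CPM, again with no overlap. Members with small values were *HSPA8*, the constitutive HSP70, at -0.14, and *HSF1*, at 0.04. *HSPA1A* and *HSPA1B* are near-identical copies, so their counts are uncertain.

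Despite its name, the cytosolic list also holds the chaperonin gene *HSPD1*, which encodes the mitochondrial HSP60. *HSPD1* had 358 and 236 CPM in normoxia and 243 and 160 CPM in hypoxia (-0.60 ± 0.0819, adjusted p = 0.114). Hypoxic replicate 1 exceeded normoxic replicate 2, so the groups overlapped, while hypoxia was the lower library within each pair. Its promoter is shown as one of the 2 in this list with letters of a heat shock element, searched as GAA, TTC and GAA, or on the other strand as TTC, GAA and TTC, with any 2 bases between neighbours (chr2:198364591-198364890, minus strand, GRCh37), with capitals for the match.
HSPD1 promoter: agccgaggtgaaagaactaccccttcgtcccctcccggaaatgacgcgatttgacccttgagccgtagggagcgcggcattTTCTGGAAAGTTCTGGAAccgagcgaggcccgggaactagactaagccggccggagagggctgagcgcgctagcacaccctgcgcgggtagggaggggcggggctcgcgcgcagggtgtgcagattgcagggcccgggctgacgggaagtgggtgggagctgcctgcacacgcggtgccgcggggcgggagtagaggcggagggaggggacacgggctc
The 2 matches began 169 and 164 bases before the start and overlap. The element was found in 73 (0.438%) of all 16686 promoters and in 2 of 21 of this list, the other being *HSPA8*. No match, as for *HSPH1*, says only that these letters are not in this window.

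In WT hypoxia 12 of the 21 genes were called lower, beside 1.77% of all gene bodies, and the list median was -0.63. No member had an interaction p under 0.05. For *HSPH1* the WT minus HIF1A-/- difference was 0.07 with a 95% interval of -0.63 to 0.77. For *HSPD1* the difference was 0.08 with an interval of -0.19 to 0.34. With 2 libraries per group, the values allow differences anywhere within these bounds.

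Chaperones of the ER and genes of the unfolded protein response moved by less. Of 23 listed genes 22 were measured, with a median of -0.41 and 20 below 0. At an unadjusted p under 0.05, 16 were lower (72.7%, beside 4.11% of all gene bodies). None passed edgeR's main test. DESeq2 with the block called 5 lower and the within-genotype fit 14, where they called 0.587% and 3.42% of all. No member was higher in any of these. *HSPA5*, the ER HSP70 also called BiP, had 98.5 and 99.2 CPM in normoxia and 70.9 and 59.1 CPM in hypoxia (-0.66 ± 0.144, adjusted p = 0.223). *HSP90B1* had 204 and 182 CPM and then 144 and 115 CPM (-0.62 ± 0.0882, adjusted p = 0.114). In both genes the groups did not overlap. The protein disulfide isomerase *PDIA4* had 161 and 132 CPM in normoxia and 119 and 92.4 CPM in hypoxia (-0.52). The sensors and degradation genes of the list lay near 0, with *ATF6* at 0.12, *ERN1* at -0.03, *EDEM1* at 0.06 and *SYVN1* at -0.03.

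The ER promoters of *HSPA5* (chr9:128003617-128003916, minus strand) and *HSP90B1* (chr12:104323861-104324160, plus strand), both GRCh37, are shown because they carry the ER stress element, searched as CCAAT, any 9 bases and CCACG, or on the other strand as CGTGG, any 9 bases and ATTGG, in capitals.
HSPA5 promoter: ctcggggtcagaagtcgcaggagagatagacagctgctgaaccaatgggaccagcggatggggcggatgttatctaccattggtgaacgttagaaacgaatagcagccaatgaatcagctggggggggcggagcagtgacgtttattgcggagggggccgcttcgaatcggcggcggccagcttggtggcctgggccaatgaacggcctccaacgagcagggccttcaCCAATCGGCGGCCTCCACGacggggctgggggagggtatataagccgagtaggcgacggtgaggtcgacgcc
HSP90B1 promoter: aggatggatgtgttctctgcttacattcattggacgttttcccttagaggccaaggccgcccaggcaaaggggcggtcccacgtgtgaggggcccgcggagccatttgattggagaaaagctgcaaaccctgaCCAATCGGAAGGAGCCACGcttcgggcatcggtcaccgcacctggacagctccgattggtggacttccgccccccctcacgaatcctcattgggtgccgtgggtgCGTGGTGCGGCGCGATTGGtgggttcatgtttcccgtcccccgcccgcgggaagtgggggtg
The match in *HSPA5* began 22 bases before the start, and those in *HSP90B1* began 117 and 12 bases before it. The element was found in 18 (0.108%) of all promoters and in 6 of 22 of the ER list, namely *CALR*, *CANX*, *CRELD2*, *HSP90B1*, *HSPA5* and *XBP1*. These 6 genes had log2 fold changes between -0.66 and -0.18 in HIF1A-/- cells. In WT hypoxia 9 of the 22 genes of the ER list were called lower, beside 1.77% of all gene bodies, and the list median was -0.37. The interaction p was under 0.05 for 4 of the 22, beside 913 of all 16686 gene bodies, and none passed the interaction test. For *HSPA5* the WT minus HIF1A-/- difference was 0.05, with a 95% interval of -0.42 to 0.51.

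**Figure D3:**
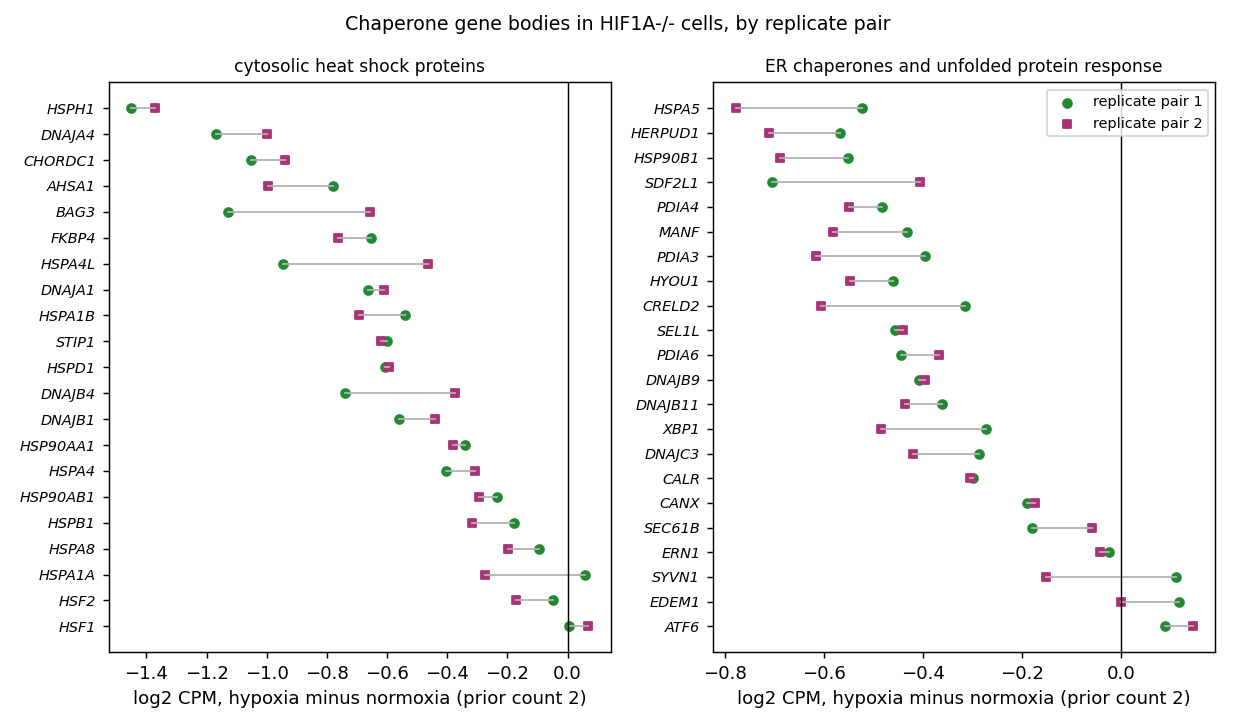
Difference in gene body log2 CPM, hypoxia minus normoxia (prior count 2), in HIF1A-/- cells. Shown are 21 genes of the cytosolic heat shock list, mitochondrial HSPD1 included, and 22 ER chaperone and unfolded protein response genes. Green circles are replicate pair 1 and purple squares pair 2. Most genes lie left of 0 in both pairs, from HSPH1 at the low end of the cytosolic list (median -0.60) to ATF6 and HSF1 just above 0.

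Clock genes stood on the higher side. The clock runs on a loop in which CLOCK and BMAL1 (gene *ARNTL*) drive repressors that include the PER, CRY, NR1D and BHLHE proteins. Of 19 listed genes 18 were measured, with a median of 0.32. At an unadjusted p under 0.05, 10 were higher (55.6%, beside 5.51% of all gene bodies) and none lower. One passed the main test (*BHLHE40*). DESeq2 with the block called 2 higher and the within-genotype fit 9, where they called 0.384% and 3.51% of all gene bodies. *PER1* had 38.5 and 46.4 CPM in normoxia and 64.4 and 71.6 CPM in hypoxia (0.64 ± 0.141, adjusted p = 0.223). *NR1D1*, a nuclear receptor that represses *ARNTL*, had 55.2 and 66.5 CPM and then 79.8 and 102 CPM (0.53 ± 0.147, adjusted p = 0.308). Neither overlapped between groups. *DBP*, an output factor of the clock, had 41.0 and 78.1 CPM in normoxia and 58.7 and 115 CPM in hypoxia, so replicates differed by more than the oxygen levels, and its log2 fold change was 0.50 (adjusted p = 0.369). The WT median of the list was 0.28. *BHLHE41*, the paralogue of *BHLHE40*, had a log2 fold change of 0.57 in HIF1A-/- and 1.71 in WT cells, and the difference of 1.14 did not pass the test (adjusted p = 0.298).

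Signal-responsive lists also had medians above 0. Immediate early genes, which growth and stress signals switch on without new protein synthesis, had 31 of 34 members measured and a median of 0.24. At an unadjusted p under 0.05, 8 were higher (25.8%, beside 5.51% of all gene bodies) and none lower. None was called in edgeR's main test. DESeq2 with the block called 2 higher and the within-genotype fit 3, where they called 0.384% and 3.51% of all. The median was 0.05 without HIF1A-/- normoxia replicate 2. *EGR1*, a zinc finger factor, had 42.4 and 44.3 CPM in normoxia and 67.0 and 94.5 CPM in hypoxia (0.83 ± 0.317, adjusted p = 0.469). *NR4A1*, an orphan nuclear receptor, had 27.3 and 20.6 CPM and then 45.4 and 33.7 CPM (0.68, adjusted p = 0.233). The groups were apart in both. The TGF-beta list, 21 of 22 measured, had a median of 0.09, which was 0.02 without HIF1A-/- hypoxia replicate 1, 0.05 without normoxia replicate 1 and 0.22 without hypoxia replicate 2. In it 6 members were higher at an unadjusted p under 0.05 (28.6%, beside 5.51% of all) and none lower. None was called in edgeR's main test, while DESeq2 with the block called 3 and the within-genotype fit 7.

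Those 6 were *SKIL*, *SMAD7*, *SMAD9*, *SMAD3*, *TGFB2* and *SMAD6*. *SMAD7* and *SMAD6* are inhibitory SMADs and *SKIL* is a SMAD corepressor, *SMAD3* is a receptor-activated SMAD, and *TGFB2* is a ligand. *SKIL* had 17.1 and 31.6 CPM in normoxia and 31.9 and 52.5 CPM in hypoxia (0.76 ± 0.161, adjusted p = 0.214), and *SMAD3* had 68.8 and 70.2 CPM and then 115 and 108 CPM (0.65 ± 0.185, adjusted p = 0.333). For both, each hypoxic library exceeded each normoxic one, narrowly for *SKIL*. NF-kappaB targets, 20 of 23 measured, had a median of 0.22, with none called in edgeR. *BCL3* and *RELB* were higher at an unadjusted p under 0.05 (10%, beside 5.51% of all gene bodies). DESeq2 with the block and the within-genotype fit called both, where they called 0.384% and 3.51% of all higher. Both genes encode members of the NF-kappaB system itself. *RELB* had 41.4 and 34.8 CPM in normoxia and 63.9 and 55.0 CPM in hypoxia (0.60, adjusted p = 0.223), without overlap.

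The p53 target list and lists of growth and energy metabolism had medians somewhat below 0. The p53 targets (25 measured) had a median of -0.18, with 19 below 0 (76.0%, beside 49.3% of all gene bodies) and 4 lower at an unadjusted p under 0.05 (16%, beside 4.11%). Of these p53 targets the within-genotype fit called 6 lower (beside 3.42% of all gene bodies). Their median was -0.04 without HIF1A-/- hypoxia replicate 1 and -0.08 without normoxia replicate 2. Nuclear subunits of oxidative phosphorylation (42) had a median of -0.12, with 34 below 0 (81.0%) and 2 lower at that p (4.76%, beside 4.11% of all). The within-genotype fit called 2 of the 42 lower. MYC-induced ribosome biogenesis genes (35) had a median of -0.09, with 29 below 0 (82.9%), 1 lower at that p (2.86%) and 3 called lower in the within-genotype fit. The median of this last list ran from -0.24 to 0.07 when 1 library was left out, above 0 without hypoxia replicate 2 or normoxia replicate 1. By comparison, the lower and upper quartiles of all gene bodies were -0.11 and 0.16.

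Integrated stress response genes (24), mTORC1 inhibitors (15), NRF2 targets (23), the pause release machinery (31) and the Jumonji demethylases and other dioxygenases (30), whose members use oxygen as a substrate, had medians between -0.04 and 0.02. At an unadjusted p under 0.05 the dioxygenases had 1 higher and 4 lower, NRF2 targets 3 lower, mTORC1 inhibitors and the pause release machinery 1 lower each and the integrated stress response none. The within-genotype fit called 1 dioxygenase higher and 3 lower, 3 NRF2 targets lower, and 1 gene lower in each of the other 3 lists. Over all gene bodies 5.51% were higher and 4.11% lower at an unadjusted p under 0.05. The within-genotype fit called 3.51% of all higher and 3.42% lower. Leaving out 1 library moved these 5 medians within -0.21 and 0.13, to either side of 0. In the main test edgeR called no gene of these 5 lists or of the 3 before them.

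**Figure D4:**
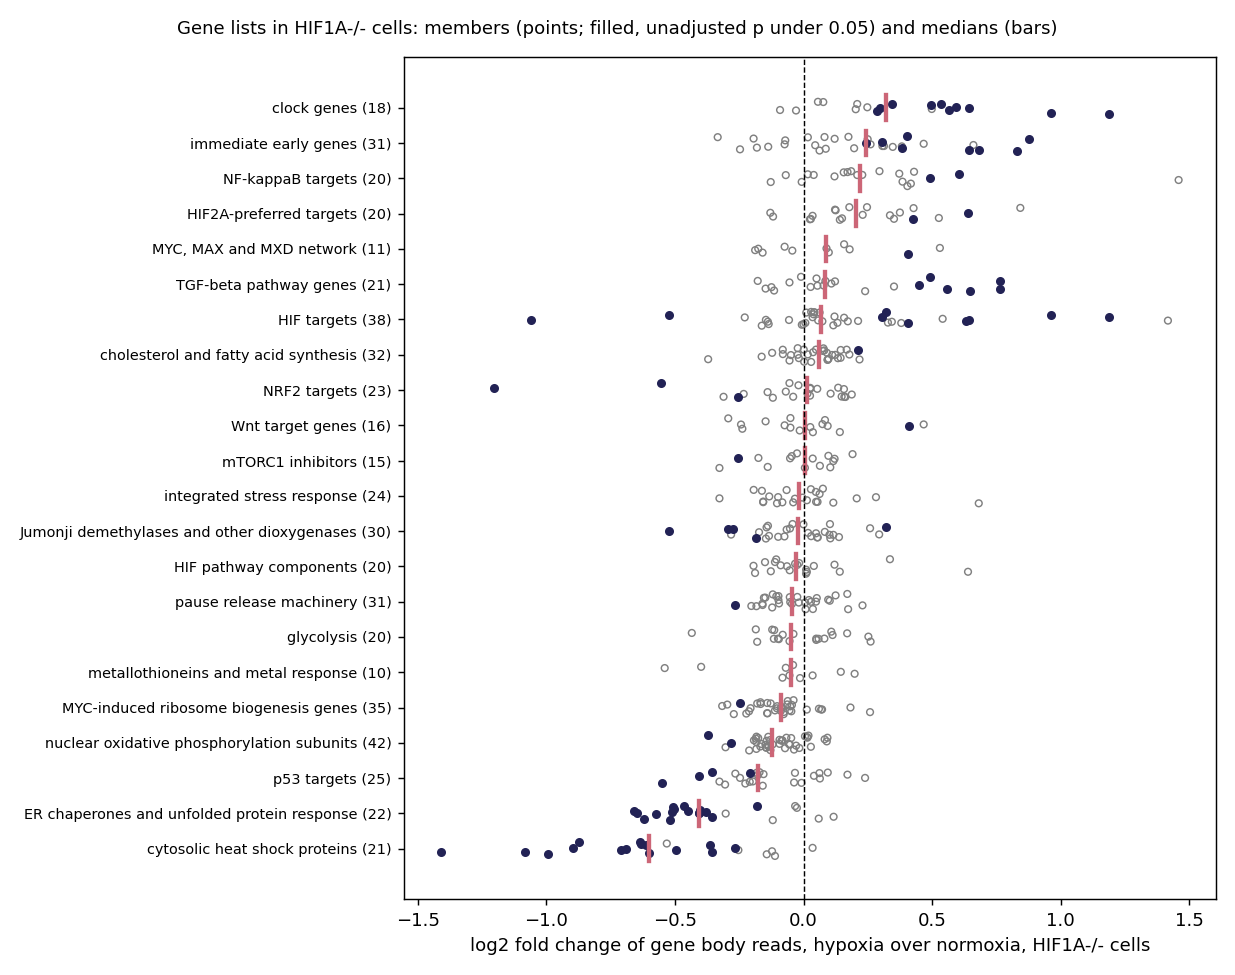
Log2 fold change of gene body reads in HIF1A-/- cells, hypoxia over normoxia, for the measured members of 22 gene lists (numbers measured in brackets), with list medians as red bars and members with an unadjusted p under 0.05 filled. Clock genes have the highest median (0.32) and cytosolic heat shock proteins the lowest (-0.60), while HIF targets and glycolysis genes sit near 0.

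In TSS regions, which hold polymerases that have just started or are paused, edgeR called 1 gene higher (0.00657%) and none lower, with 232 higher (1.53%) and 219 lower (1.44%) at an unadjusted p under 0.05. DESeq2 with the block also called 1 higher and none lower, and the within-genotype fit called 4 higher and 9 lower (0.0263% and 0.0592%). The gene was *BHLHE40*, with 67.5 and 114 TSS CPM in normoxia and 143 and 177 TSS CPM in hypoxia. The groups were apart, and the log2 fold change was 0.83 ± 0.146 (adjusted p = 0.0769). Without the second HIF1A-/- normoxia library edgeR called 6 higher and 18 lower.

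The TSS regions of 2 cytosolic chaperones were among those next in order of p. *DNAJA4*, an HSP40 co-chaperone, had 47.1 and 23.6 TSS CPM in normoxia and 20.3 and 9.82 TSS CPM in hypoxia (-1.24, adjusted p = 0.481). *HSPH1* had 289 and 265 TSS CPM and then 199 and 163 TSS CPM (-0.64). Both had lower hypoxic values in every library, and both were called in the within-genotype fit (adjusted p = 0.002 each). Over the heat shock list the TSS median was -0.15 with 5 of 21 lower at an unadjusted p under 0.05, and over the ER list it was -0.12 with 3 of 21 lower, beside -0.00 over all TSS regions. The clock list had a TSS median of 0.31 with 3 of 18 higher, close to its gene body median of 0.32. Over all TSS regions 1.53% were higher and 1.44% lower at an unadjusted p under 0.05.

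The pausing index, the density of reads in the TSS region over that in the gene body, was called for no gene in either direction by edgeR, with or without the block. At an unadjusted p under 0.05 the index was higher for 207 genes (1.43%) and lower for 361 (2.49%) of 14494. In the heat shock list the median change was 0.38, with 7 of 21 higher and none lower at that p, beside a median of -0.03 over all genes. *BAG3* had an index of 35.5 and 46.4 in normoxia and 80.0 and 74.4 in hypoxia (0.92 ± 0.189, adjusted p = 0.563). *CACYBP* had 27.8 and 46.0 and then 59.8 and 73.0 (0.88, adjusted p = 0.563). In both, the hypoxic values were above the normoxic ones, and TSS reads of *CACYBP* were at 112 and 142 CPM in normoxia and 138 and 137 CPM in hypoxia while its gene body values were lower.

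*EGR1* went the other way, with an index of 26.3 and 18.8 in normoxia and 16.1 and 9.61 in hypoxia (-0.84 ± 0.169, adjusted p = 0.563). *BHLHE40* had 33.8 and 27.7 in normoxia and 30.3 and 18.5 in hypoxia, which overlap (-0.39, unadjusted p = 0.0355). In the ER list the median change was 0.17 and in the clock list -0.21. The index has its gene body count in the denominator, so it is not independent of the gene body values given before. The TSS share of reads differed between replicate 1 and replicate 2 in HIF1A-/- cells at both oxygen levels. The index fit held a replicate term shared by both genotypes, which does not model a difference specific to HIF1A-/- cells. The part of that difference in these values was not tested.

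**Figure D5:**
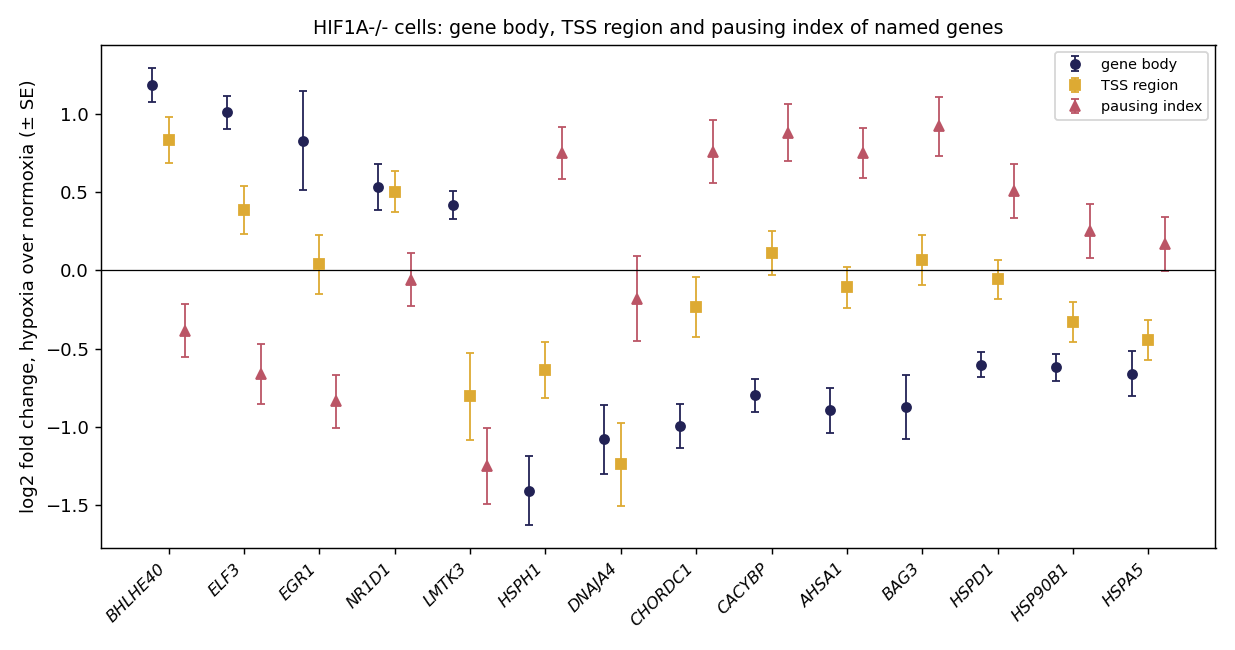
Log2 fold change, hypoxia over normoxia in HIF1A-/- cells, of gene body reads (dark circles), TSS region reads (yellow squares) and the pausing index (red triangles) for 14 named genes, with bars of 1 SE. BHLHE40 is raised in both regions (1.19 and 0.83), whereas CACYBP and BAG3 are lower in the gene body with TSS values near 0 and a higher index (0.88 and 0.92).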

How the data were processed

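PRO-seq libraries of WT and HIF1A-/- HCT116 cells in normoxia and hypoxia (2 biological replicates per group) were used as deposited raw counts per gene. Per the labels and the study's methods, the authors aligned reads to GRCh37 with HISAT2 2.1.0 and made the counts with featureCounts (Subread 1.6.2) in a TSS region of 551 bp (50 bp before to 500 bp after the start) and in a gene body from 1001 bp to the gene end, for 1 start and 1 body per gene. Genes with several active starts are therefore seen through one of them.

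From the counts, genes with CPM above 0.5 in at least 2 of the 8 libraries were kept. The quasi-likelihood functions glmQLFit and glmQLFTest of edgeR 4.0.16 (R 4.3.3) were applied after TMM scaling, in one fit of 4 groups plus the replicate number, per region. Benjamini-Hochberg adjustment covered every gene tested, and the threshold was an FDR of 10%. The pausing index was tested in one edgeR fit of both tables with a term for each library. CPM are per 1000000 reads of each library's total, pausing index values are densities per length and per table total, and pair differences are log2 CPM with a prior count of 2. The replicate numbers come from the labels. After subtraction of group means, libraries of one number deviated together in every pair of groups (correlation over genes 0.484 to 0.790 in gene bodies, 0.216 to 0.519 in TSS regions), so the number was kept as a block. In gene bodies it was 0.790 within HIF1A-/-, 0.597 within WT and 0.48 to 0.51 between genotypes. In TSS regions it was 0.519, 0.319 and 0.216 to 0.264. The shared block does not model the part of the pairing specific to a genotype, which the within-genotype fit does. No replicate pair agreed within sampling noise. DESeq2 1.42.0, no block, library totals, other filters, the HIF1A-/- libraries alone and left-out libraries were tried as alternatives. The script was tested on simulated data.

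Named genes were those called, filled up per direction to 10 gene bodies, 4 TSS regions and 4 pausing indices. The fill took the smallest p among genes whose groups did not overlap. A fixed set of HIF pathway, HIF target and signal-responsive genes was added, of which *EGLN2* did not pass the filter. From each list the called members and a few with the smallest p were added, which is how chaperone and clock genes came in. Of the genes called higher in WT hypoxia, a few with the smallest p in HIF1A-/- cells were also added. Other list members are named as examples after their values were seen. Members and gene lists were chosen with earlier results of these data known. Promoter sequences were read from the GRCh37 genome around the RefSeq starts of the deposited tables, for all gene bodies tested.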

Additional observations from a re-analysis of the deposited data

Results flagged for a closer look

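The response to hypoxia was compared between genotypes for the 130 named genes by the interaction term of the edgeR gene body fit, and 21 differed at an FDR of 10%, all with the larger rise in WT cells. Over all 16686 gene bodies the same test called 64 with the higher WT change (0.384%) and none with the lower. The direction is therefore not particular to the named genes. The sizes below are WT minus HIF1A-/- differences of log2 fold changes. The widest differences were at *ANKRD37* (4.89), *MIR210HG* (3.38) and *ANGPTL4* (3.06). Those of the mitophagy receptor *BNIP3* (2.82), the mTORC1 inhibitor *DDIT4* (2.73), *FAM162A* (2.65), *PFKFB4* (2.60), *NDRG1* (2.56) and *P4HA1* (2.50) followed. Metabolic genes with a difference were *PDK1* (2.39), *PGK1* (2.29), *SLC2A1* (2.08), *PGAM1* (1.56) and *ALDOA* (1.27). The peptide hormone *ADM* differed by 2.09, the histone demethylase *KDM3A* by 2.06, *EGLN3* by 2.02, *BHLHE40* by 1.91, *EGLN1* by 1.34, *VEGFA* by 1.18 and the MYC antagonist *MXI1* by 1.08. Among these 21, only *BHLHE40* was itself called in HIF1A-/- cells. The genes were chosen with earlier results known, and the level of *SLC2A1* already differed between genotypes in normoxia.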

How the results depend on the processing

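Counts of calls depended on the model, and the 6 called genes kept their direction in all 16 alternatives. Gene bodies called higher and lower, 5 and 1 in the reported fit, were 0 and 0 without the replicate block, 64 and 98 with DESeq2 and the block, 2 and 6 with DESeq2 without it, 5 and 0 with library totals or a stricter filter (CPM above 2), 15 and 34 with no filter, 1876 and 1921 in the HIF1A-/- libraries alone (1 residual degree of freedom) and 585 and 571 with the replicate block within each genotype, added after the data were seen. Leaving out 1 library gave 0 to 5 higher and 0 to 5 lower. For TSS regions, 1 and 0 became 0 and 0 without the replicate block, with DESeq2 without it, with library totals or with a stricter filter, 1 and 4 with no filter, 25 and 27 in the HIF1A-/- libraries alone, 4 and 9 with the replicate block within each genotype, and 0 to 6 and 0 to 18 with 1 library left out. The pausing index gave 0 calls without the replicate block, with TMM taken separately per region, with a stricter filter and with each HIF1A-/- library left out, and was not run under the other settings. Named genes with a genotype difference numbered 21, and 7 without the replicate block, 29 with it within each genotype and 10 to 23 with 1 library left out. The HIF1A-/- median of the genes called higher in WT hypoxia was 0.21, 0.25 with library totals and 0.20 to 0.24 with 1 library left out. *LINCR-0002* passed the threshold in 13 of 16 alternatives, *PHEX* in 10, *BHLHE40* in 9, *ELF3* and *LINC01619* in 8 and *BANP* in 7. The cause of these shifts was not tested. With 2 libraries per group and 20272336 to 21999565 gene body reads in HIF1A-/- libraries, small changes cannot be resolved one gene at a time.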

Other observations

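Gene bodies with an unadjusted p under 0.05 in HIF1A-/- cells differed in kind by direction. Of the 685 lower ones, 37.8% were at least 100 kb long, against 18.0% of the 920 higher ones and 15.6% of all 16686, and their median level over libraries was 78.3 CPM against 15.5 and 27.6 CPM. Level and length were not separated. Gene bodies under 1 CPM had a median log2 fold change of 0.23 in HIF1A-/- cells and 0.24 in WT cells, and those of 100 CPM or more had medians of -0.06 in both. The difference between replicate pair 1 and pair 2 had a median size of 0.132 on the log2 scale in HIF1A-/- cells and 0.181 in WT cells.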
